A study of Mus musculus with 6 samples.

Results

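Chromosomes 3 and 14 of the mouse carried fewer open regions, as a share of all open regions called, in one IGCR1-mutated pro-B cell line (CBE_1) and more in another (CBE_2). Overlapping peaks of 6 ATAC-seq lists (1 bp of overlap or more) were joined to make 1 set of regions, and all regions on these chromosomes were kept. They numbered 14655 of 149724 (9.79%), with 8392 on chromosome 3 and 6263 on chromosome 14. These chromosomes were chosen because CBE_1 had the lowest and CBE_2 the highest share of peaks on both. The values below come from the same lists, so they are given as a description and no difference between the lines was tested. An exact permutation test of 2 libraries against 2 cannot give a two-sided p below 0.333.

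ATAC-seq uses a transposase that cuts where DNA is free of tightly packed nucleosomes, and a peak marks a place cut more often than its background. All 6 libraries came from untreated pro-B cell lines, cultured B cell precursors of strain 129SV bone marrow without RAG2, which B and T cells need to cut antigen receptor gene segments for joining. The WT line carries unchanged IgH alleles, and CBE_1 and CBE_2 both have the genotype IGCR1-/-, a mutated control region of the IgH locus on chromosome 12. Each line has 2 libraries (its pair, below) of 200000 cells amplified with 11 PCR cycles, and the labels do not say that they came from separate cultures. With 1 WT line, line and genotype cannot be told apart. The pro-B identity was not checked against marker genes here, because the available gene positions belong to a different genome build.

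Open regions are mostly promoters, enhancers and insulator sites, and they crowd in gene-rich stretches of a chromosome. Gene-poor stretches, much of which lies in closed chromatin at the edge of the nucleus, hold few of them. Both kinds alternate along mouse chromosomes, so whole chromosomes and their dense and sparse stretches are described in turn. Coordinates are of mouse build mm9.

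The lists held 72318 to 112241 peaks, fewest in CBE_1 and most in WT, and covered 52.6 to 80.1 Mb. The number of reads behind each list is unknown. A shorter list holds fewer weak peaks, so peak numbers are given as shares of a list. Intervals are 95% Wilson intervals for counting error only, and neighbouring peaks are not independent.

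Chromosome 3 held 5935 and 5519 peaks in the WT libraries, 3405 and 3936 in the CBE_1 pair, and 5418 and 5495 in the CBE_2 pair. As shares of the list these were 5.29% (interval 5.16 to 5.42) and 5.20% (5.07 to 5.34) in WT. The CBE_1 shares were lower, at 4.71% (4.56 to 4.87) and 4.91% (4.76 to 5.06). The CBE_2 shares were higher, at 5.72% (5.58 to 5.87) and 5.63% (5.49 to 5.78). The lines did not overlap, an order that the choice of the chromosome fixes. Chromosome 14 held 4488 and 4168 peaks in the WT pair, 2448 and 2844 in the CBE_1 pair, and 4048 and 4206 in the CBE_2 pair. Its shares were 4.00% and 3.93% in the WT pair, 3.39% and 3.54% in the CBE_1 pair, and 4.28% and 4.31% in the CBE_2 pair, with the order again fixed by the choice. On both chromosomes CBE_1 replicate 1, the shortest list, had the lowest share. Covered bases followed the same order, from 4.62% and 4.81% in the CBE_1 pair to 5.37% and 5.35% in the CBE_2 pair on chromosome 3, with 4.99% and 4.95% in the WT pair.

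**Figure D1:**
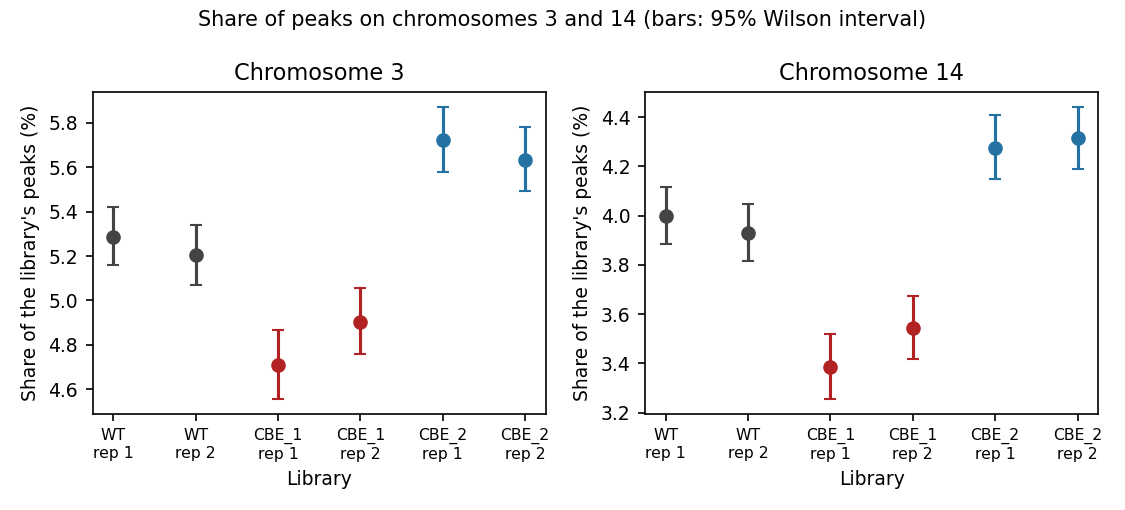
Share of each library's peaks (y axis, %) on chromosome 3 (left) and chromosome 14 (right), with points for the 6 libraries and bars for the 95% Wilson interval. The CBE_1 libraries lie at 4.71% and 4.91% on chromosome 3, below WT, and the CBE_2 libraries at 5.72% and 5.63%, above WT. The y axes do not start at 0.

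Most of these shifts were smaller with lists of the same length, while that of CBE_1 on chromosome 14 changed little. CBE_1 minus WT was -0.439 percentage points on chromosome 3 and -0.5 on chromosome 14, and CBE_2 minus WT was 0.433 and 0.330. When every list was reduced to the best 72318 peaks, the CBE_1 differences were -0.244 and -0.482 and the CBE_2 differences 0.207 and 0.153. With the better 50% of each list the CBE_2 differences were 0.0738 and 0.0623 points, and those of CBE_1 -0.243 and -0.393. The CBE_2 excess was thus small among the stronger peaks, while CBE_1 remained lower there.

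Among 20 chromosomes, both CBE_1 shares lay below both WT shares on 8, and both CBE_2 shares above both WT shares on 12. Both conditions held on 4, namely 3, 14, 6 and 16. The ratio of mean shares, CBE_1 to WT, was 0.916 on chromosome 3 and 0.874 on chromosome 14, against 0.972 on chromosome 6 and 0.970 on chromosome 16, where the order was the same but the gap narrower. Chromosome 14 thus had the third and chromosome 3 the fifth lowest CBE_1 ratio, after chromosomes 19 and 10, with chromosome 5 between them. The CBE_2 ratio was 1.08 on both. Chromosomes 19, 10 and 5 were lower than WT in CBE_2 too, at 0.655, 0.865 and 0.929.

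**Figure D2:**
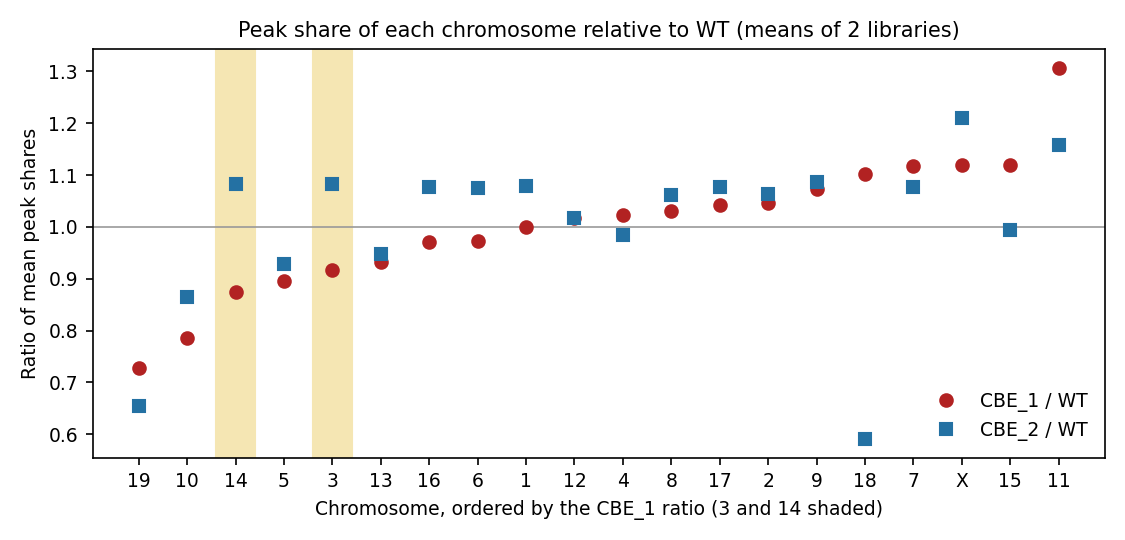
Ratio of the mean share of peaks in CBE_1 (circles) and CBE_2 (squares) to that in WT (y axis) for each of 20 chromosomes, ordered by the CBE_1 ratio, with chromosomes 3 and 14 shaded and a line at 1. On the shaded chromosomes the circles lie at 0.916 and 0.874 and the squares at 1.08. The y axis does not start at 0.

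Regions were next sorted by the libraries that had a peak there. Regions missing from both CBE_1 libraries and present in the other 4 numbered 531 on chromosome 3 (6.33%) and 388 on chromosome 14 (6.20%). The whole genome gave 5.05%, the other 18 chromosomes 4.92%, and chromosome 3 had the highest share of all chromosomes. Chromosome 8 came next with 6.29%, ahead of chromosome 14, while its CBE_1 ratio of peak shares was 1.03. A high share was thus not confined to chromosomes poorer in CBE_1. The joint share of 6.27% was 7.13% to 10.7% when 1 of the 6 libraries was left out, highest without CBE_1 replicate 2. It was 4.12% once all lists were reduced to 1 length. The genome share was not recomputed for these settings, so they cannot be set against the 5.05%. The reverse pattern was rare: 34 regions on chromosome 3 (0.405%) and 11 on chromosome 14 (0.176%) were found in both CBE_1 libraries alone, against 0.667% over the genome, and chromosome 14 had the lowest share of all chromosomes. Regions found in both CBE_2 libraries alone numbered 355 (4.23%) and 266 (4.25%), against 3.14% genome-wide.

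WT-only regions, in which both WT libraries stood alone, numbered 698 (8.32%) and 478 (7.63%), against 8.68% over the genome. Mutated-only regions, present in all 4 libraries of CBE_1 and CBE_2 and in neither WT library, numbered 124 (1.48%) and 75 (1.20%), against 1.52%. Both patterns, which set WT apart from the mutated lines together, were no more frequent here than over the genome. Regions missing from both CBE_2 libraries alone numbered 42 (0.5%) and 17 (0.271%), against 0.653%. Present in all 6 libraries were 2344 regions (27.9%) and 1755 regions (28.0%), below the 31.9% of the genome. A further 2515 and 1928 regions were found in 1 library, and 4264 and 3273 followed no named pattern, these single-library regions included.

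The regions missing from CBE_1 alone had slightly lower median folds in WT than all peaks of their chromosome. In WT replicate 1 they had a median deposited fold over background of 3.79 on chromosome 3 and 3.90 on chromosome 14, against 3.90 and 3.95 for all peaks of these chromosomes and 8.11 and 8.55 for the regions present in all 6 libraries. In WT replicate 2 the medians were 3.74 on both chromosomes, against 4.17 for all peaks of either chromosome and 8.24 and 8.46 for the regions present in all 6. On the other chromosomes the missing regions had 3.90 against 4.11 in WT replicate 1 and 3.85 against 4.28 in WT replicate 2. The lower folds were thus not particular to chromosomes 3 and 14. A region takes the fold of its best peak, while all peaks count singly, so these measures are not alike. Regions found in CBE_2 alone had medians of 3.07 and 3.19 in CBE_2 replicate 1. WT regions were then grouped by strength, the mean of their 2 percentiles by −log10 p within the WT lists.

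Of 7788 regions of chromosomes 3 and 14 with a peak in both WT libraries, 4227 (54.3%, interval 53.2 to 55.4) also had one in both CBE_1 libraries, against 58.8% (58.4 to 59.1) on the other chromosomes and 58.4% over the genome. In both CBE_2 libraries 74.1% (73.1 to 75.02) were found again, against 72.9% (72.6 to 73.2) elsewhere and 73% over the genome. By strength, the share found again in CBE_1 rose from 9.54% below the 20th percentile to 17.9%, 39.8%, 75.4% and 95.8% in the strongest of 5 groups. The other chromosomes gave 12.1%, 21.5%, 45.7%, 78.1% and 96.3%. The gap was widest in the middle group, with intervals of 37.6 to 42.1 and 44.9 to 46.4, and the intervals of the weakest and of the strongest group overlapped. CBE_2 was the reverse below the 60th percentile. It had 48.2% found again between the 20th and 40th percentiles and 74.4% between the 40th and 60th, against 42.1% and 70.7% elsewhere. Above the 60th percentile CBE_2 gave 89.5% and 98.3%, slightly below the 90.5% and 98.6% elsewhere. Chromosomes 3 and 14 gave nearly the same values, 41.0% and 38.3% for CBE_1 in the middle group.

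**Figure D3:**
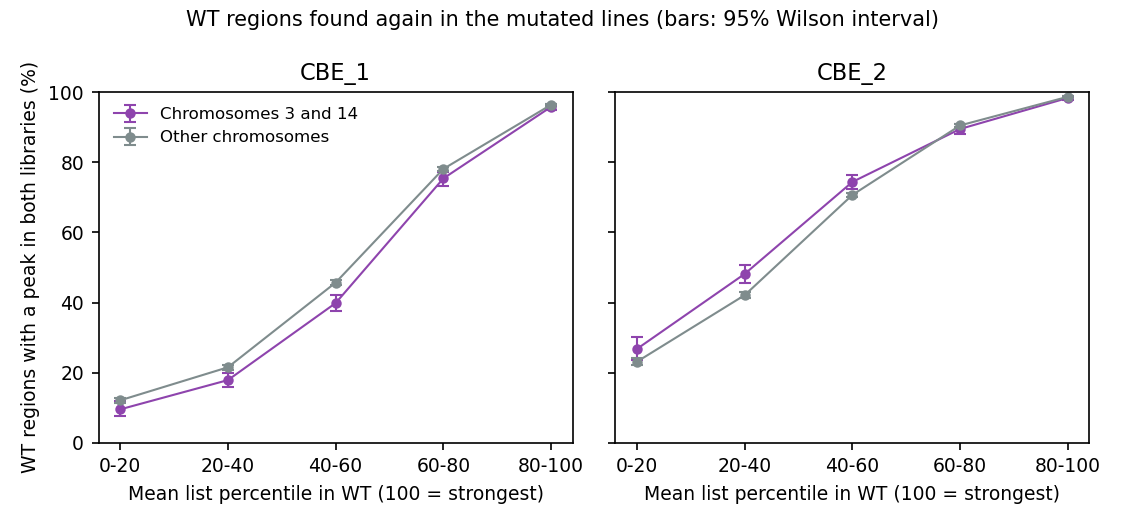
Share of regions with a peak in both WT libraries that also had one in both CBE_1 (left) or both CBE_2 libraries (right), on the y axis, by mean percentile in the WT lists (x axis), for chromosomes 3 and 14 together and for the other chromosomes. Bars are 95% Wilson intervals. In CBE_1 the values of chromosomes 3 and 14 run from 9.54% to 95.8% and lie below the others, and in CBE_2 they lie above them in the 3 weaker groups.

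The ratio of CBE_1 to WT was lowest in sparse stretches, while in percentage points of the list most of the lack lay in bins of middle density. All 2524 bins of 1 Mb that held a peak were ordered by their mean share of the lists, each line weighted equally, and split into 3 classes of equal size called peak-poor, middle and peak-dense. The CBE_1 shares are part of that mean, so a bin low in CBE_1 falls toward the peak-poor class. Chromosome 3 had 57 peak-poor and 47 peak-dense bins of 155, and chromosome 14 had 48 and 27 of 120. Peak-poor bins thus made up 36.8% and 40% of them, against 32.8% on the other chromosomes, and peak-dense bins 30.3% and 22.5%, against 34.1%.

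In the peak-poor bins of chromosome 3, there were 411 and 350 peaks in the WT pair, 134 and 171 in the CBE_1 pair, and 323 and 297 in the CBE_2 pair. In those of chromosome 14 the numbers were 472 and 425 in the WT pair, 134 and 170 in the CBE_1 pair, and 424 and 415 in the CBE_2 pair. As shares of the list, CBE_1 had 0.572 times the WT share on chromosome 3 and 0.484 times on chromosome 14, and no CBE_1 library reached a WT library. In middle bins the CBE_1 ratio was 0.774 and 0.773, and in peak-dense bins 1.02 and 1.04. The middle bins, which hold more peaks, accounted for -0.347 of the -0.439 points on chromosome 3 and for -0.357 of the -0.5 points on chromosome 14. Dense stretches therefore held as large a share of the CBE_1 lists as of the WT lists. The CBE_2 ratios followed no such order, at 0.928, 1.12 and 1.08 from poor to dense on chromosome 3 and 1.06, 1.01 and 1.14 on chromosome 14.

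**Figure D4:**
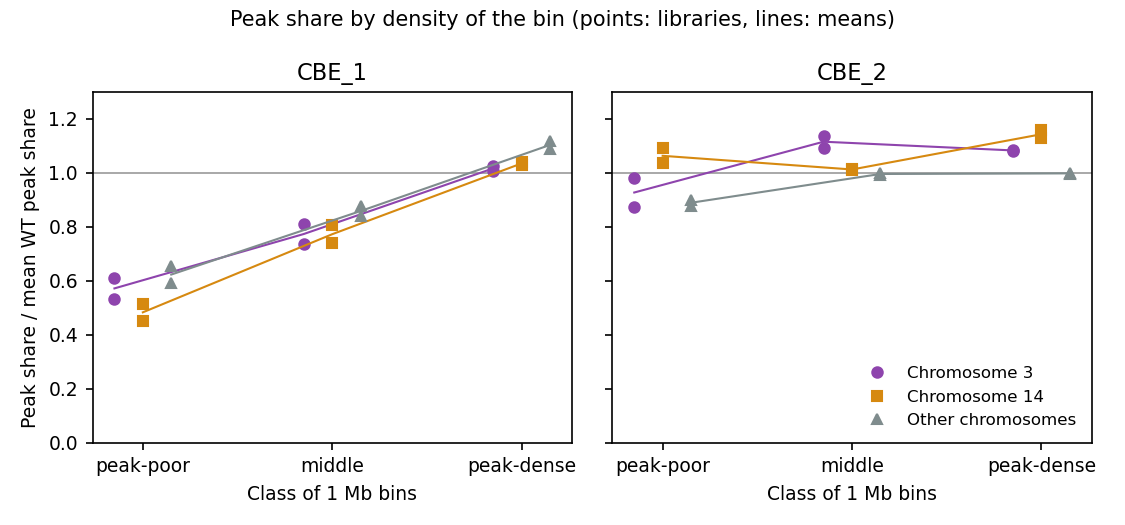
Share of peaks in peak-poor, middle and peak-dense 1 Mb bins relative to the mean WT share (y axis) for CBE_1 (left) and CBE_2 (right), with 2 points for the libraries of a line and lines through their mean, for chromosome 3, chromosome 14 and the other chromosomes. The CBE_1 mean climbs from 0.572 to 1.02 on chromosome 3, from 0.484 to 1.04 on chromosome 14 and from 0.624 to 1.10 on the others.

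The rise from sparse to dense bins was not confined to these chromosomes. On the other 18 together the CBE_1 ratio was 0.624 in peak-poor, 0.859 in middle and 1.10 in peak-dense bins, and it was higher in dense than in poor bins on 19 of 20 chromosomes. In each class both chromosomes 3 and 14 lay lower than the other 18 together. If the peaks of WT on chromosome 3 had changed by the class ratios of the other chromosomes, the CBE_1 ratio would have been 1.00 in place of the measured 0.916, and on chromosome 14 it would have been 0.957 in place of 0.874. For CBE_2 the same sum gave 0.991 and 0.986, against the measured 1.08 on both. The chromosomes were chosen by these measured ratios, so gaps in these directions are no finding. Chromosomes 19, 10 and 5 are themselves among the 18 that give the class ratios. For CBE_1 the same sum gave 1.02 on each of them, against the measured 0.729, 0.786 and 0.895. Others of the 18 went the opposite way, such as chromosome 11 with 1.05 against the measured 1.31. What lies behind such gaps was not tested. Sorting bins with 1 duplicate of each line and measuring in the other left the joint ratios at 0.570 in peak-poor and 1.03 in peak-dense bins. That sorting still used a CBE_1 library, so bins low in the CBE_1 line fall toward the peak-poor class there too. It therefore cannot separate the trend from the way the classes were made.

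Single bins of 1 Mb followed the same order. Both CBE_1 shares lay below both WT shares in 43 of 57 peak-poor bins of chromosome 3 and 37 of 48 of chromosome 14, against 47.7% of all 1 Mb bins and 62.6% of the peak-poor bins of the other chromosomes. In peak-dense bins this held in 16 of 47 and 5 of 27, against 23.9% elsewhere. Both CBE_2 shares lay above both WT shares in 28 of 47 dense bins of chromosome 3 and 18 of 27 of chromosome 14, against 39.2% of all bins and 48.6% of the peak-dense bins of the other chromosomes. A peak in both WT libraries and none in CBE_1 was found in 17 of 57 peak-poor bins of chromosome 3 (29.8%) and 7 of 48 of chromosome 14 (14.6%), against 5.55% of all 1 Mb bins and 15.6% of the peak-poor bins of the other chromosomes. Chromosome 14 was thus no higher than the others in this count. The CBE_1 share enters the class of a bin, so bins without CBE_1 peaks fall toward the peak-poor class by construction.

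Presence patterns were also split by density. Regions missing from CBE_1 alone made up 6.06% of regions in peak-poor, 7.12% in middle and 5.77% in peak-dense bins of chromosomes 3 and 14. On the other chromosomes the shares were 6.98%, 6.63% and 4.00%. The gap to the other chromosomes was thus widest in the dense bins, which held 461 of the 919 such regions. It turned in the peak-poor bins of chromosome 14, at 5.36%, while those of chromosome 3 gave 7.04%, close to the others. Regions present in all 6 libraries made up 10.6% of peak-poor and 34.2% of peak-dense bins, against 15.4% and 35.7% elsewhere. WT-only regions went the other way, from 14.2% in peak-poor to 6.24% in peak-dense bins, against 15.2% and 7.44% elsewhere.

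In bins of 5 Mb, both CBE_1 shares lay below both WT shares in 18 of 32 bins of chromosome 3 and 17 of 26 of chromosome 14, against 47.3% of 537 bins over the genome. Both CBE_1 shares lay above both WT shares in 8 and 2 bins, against 35.8%. Both CBE_2 shares lay above those of WT in 18 and 15 bins, against 49.5%, and below them in 8 and 9, against 34.8%. CBE_1 below and CBE_2 above WT in the same bin was found in 5 bins of chromosome 3 and 9 of chromosome 14. Over the genome this held in 67 of 537 bins. Both lines lay below WT in 8 and 8 bins, against 141 of 537. The shift of the chromosome as a whole was therefore made of bins that went different ways, as bins over the genome also did. Among the 48 bins with at least 50 peaks on average, the CBE_1 ratio ranged from 0.148 to 1.37 with a median of 0.906, and the CBE_2 ratio from 0.398 to 1.66 with a median of 1.09. Across these 48 bins the CBE_1 ratio rose with the mean share of the bin (Spearman rho 0.585, Pearson r 0.567), where both measures contain the CBE_1 peaks. The rho was 0.428 over 27 bins of chromosome 3 and 0.743 over 21 of chromosome 14, below and above the 0.460 of the 420 other bins of this kind.

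**Figure D5:**
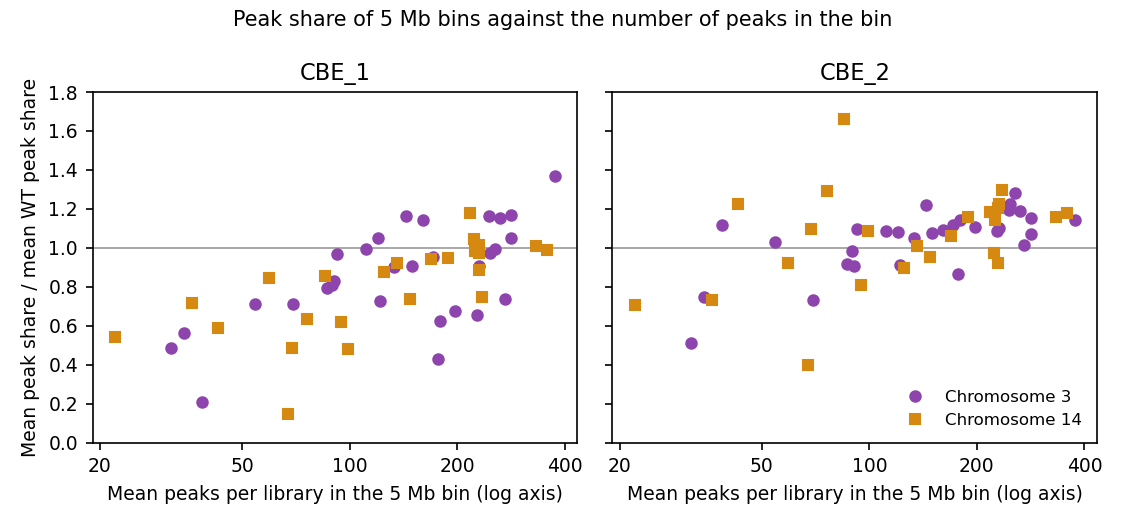
Ratio of the mean share of peaks to that of WT (y axis) for CBE_1 (left) and CBE_2 (right) in each 5 Mb bin of chromosomes 3 and 14 with at least 20 peaks on average, against the mean number of peaks per library (log x axis). The lowest CBE_1 value is 0.148, while the bin with the most peaks on chromosome 3 lies at 1.37.

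Along chromosome 3 the low bins lay on either side of a stretch that was not low. The stretches compared next were marked off after the bin values were seen. Both CBE_1 shares lay below both WT shares in 10 of 15 bins of 5 Mb up to 75 Mb, in 0 of 7 from 75 to 110 Mb, and in 8 of 10 from there to the end. From 110 to 160 Mb, WT had 2491 and 2227 peaks, CBE_1 1105 and 1340, and CBE_2 2267 and 2250. This was 2.22% and 2.10% of the WT lists, 1.53% and 1.67% of the CBE_1 lists, and 2.39% and 2.31% of the CBE_2 lists, a CBE_1 ratio of 0.740. In this stretch the ratio was 0.815 even in the 19 peak-dense bins of 1 Mb. From 75 to 110 Mb the order turned, with 1.61% and 1.65% in the WT pair, 1.91% and 1.88% in the CBE_1 pair, and 1.85% and 1.86% in the CBE_2 pair, so both mutated lines exceeded WT. From the start to 75 Mb the CBE_1 ratio was 0.899 and that of CBE_2 1.01. The CBE_1 deficit of chromosome 3 thus lay in its last 50 Mb and, to a lesser degree, its first 75 Mb, where 39 of 70 bins of 1 Mb were peak-poor, and not in the stretch between them.

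Chromosome 14 was divided in a like way. From 80 to 120 Mb, WT had 1181 and 1024 peaks, CBE_1 429 and 566, and CBE_2 1105 and 1115, with a CBE_1 ratio of 0.644 and a CBE_2 ratio of 1.15. Both CBE_1 libraries lay below both WT libraries in all 8 bins of 5 Mb there, and both CBE_2 libraries above them in 7. Of its 40 bins of 1 Mb, 22 were peak-poor and 4 peak-dense, and the dense bins had a CBE_1 ratio of 0.855. From 55 to 80 Mb, with 13 peak-dense bins of 25, the CBE_1 ratio was 1.03 and that of CBE_2 1.17. In the first 55 Mb both mutated lines were lower than WT, at 0.883 and 0.939, while every stretch from 55 Mb onward was higher in CBE_2 than in WT.

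Single full 5 Mb bins were then ranked, leaving out those with under 50 peaks on average per library, some of which had lower ratios. The bin at the end of chromosome 3, from 155 Mb, is not a full one and was left out too. Its CBE_1 ratio was 0.626, with 242 and 198 peaks in the WT pair and 82 and 111 in the CBE_1 pair. The lowest CBE_1 ratio on chromosome 14, 0.148, was that of 110 to 115 Mb, with 10 and 19 peaks in the CBE_1 pair and 48 and 49 in the CBE_2 pair, against 146 in WT replicate 1. As shares of the list these were 0.130% and 0.124% in the WT pair, 0.0138% and 0.0237% in the CBE_1 pair, and 0.0507% and 0.0502% in the CBE_2 pair. Here CBE_2 was also low, at 0.398. The bins at 95 to 100 Mb and 105 to 110 Mb followed with CBE_1 ratios of 0.484 and 0.488, where CBE_2 stood at 1.09 and 1.10. On chromosome 3 the lowest of these bins was 150 to 155 Mb, with 273 and 240 peaks in the WT pair, 69 and 86 in the CBE_1 pair, and 198 and 193 in the CBE_2 pair, a CBE_1 ratio of 0.431. Next came the 5 Mb from 130 Mb at 0.656 and those from 140 Mb at 0.678, with CBE_2 at 1.08 and 1.11. These bins were not sparse in WT, where each held at least 227 peaks, so low CBE_1 values were also found in well-filled bins.

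The highest CBE_1 ratio of chromosome 3 among these bins was that of 85 to 90 Mb, at 1.37, with 382 and 381 peaks in the WT pair, 363 and 367 in the CBE_1 pair, and 382 and 387 in the CBE_2 pair. The number of peaks there was nearly the same in all 6 lists although the CBE_1 lists were shorter. The bins at 95 to 100 Mb and 100 to 105 Mb followed at 1.17 each. The highest of chromosome 14 were 55 to 60 Mb at 1.18, 30 to 35 Mb at 1.05 and 70 to 75 Mb at 1.02. In the last 2 the CBE_1 and WT libraries overlapped.

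Regions missing from CBE_1 tended to lie beside one another. Of the regions present in all 4 WT and CBE_2 libraries, 16.1% on chromosome 3 and 15.7% on chromosome 14 were missing from CBE_1, against 11.7% elsewhere. After a missing region the next one was missing in 27.1% and 23.3% of cases, and after one that was not, in 13.996% and 14.3%. The other chromosomes gave 23.6% and 10.2%, so such clustering was not particular to chromosomes 3 and 14. Runs of at least 5 such regions in a row numbered 4 on chromosome 3 and 2 on chromosome 14, of 50 over the genome. Together these were 12% of the runs, near the 9.79% of all regions that lie on these chromosomes. Regions found in some of the other libraries can lie inside a run.

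The longest run of chromosome 3 spanned 7 regions from 133247642 to 133344224, with 10 and 11 peaks in the WT pair, none in either CBE_1 library, and 13 and 14 in the CBE_2 pair. The second, with 6 regions from 79214325 to 79280162, had 7 peaks in each WT library, none in CBE_1, and 9 and 8 in the CBE_2 pair. The most extended of the others, at 114619146 to 115245084, held 5 regions over 626 kb, with 16 and 14 peaks in the WT pair, none in CBE_1, and 16 and 13 in the CBE_2 pair. In these stretches CBE_2 had about as many peaks as WT. On chromosome 14 the run from 111672689 to 114592042 reached over 2919 kb with 6 regions, and held 79 and 68 peaks in the WT pair, 2 and 6 in the CBE_1 pair, and 26 and 31 in the CBE_2 pair. It lies within the bin of 110 to 115 Mb. The run of 10 regions from 60225897 to 60607540 held 13 and 11 peaks in the WT pair, none and 1 in CBE_1, and 13 and 12 in the CBE_2 pair.

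Some missing regions were strong elsewhere. The first of the 5 best-ranked ones on chromosome 14 lay at 102438196 to 102440007 and reached folds of 19.3 and 18.8 in the WT pair and 15.1 and 15.4 in the CBE_2 pair. The second, at 47630669 to 47632172, had folds of 12.3 and 12.3 in the WT pair and 10.5 and 10.4 in the CBE_2 pair. The other 3 lay between 60 and 66 Mb, and 1 of them, at 60606631 to 60607540, ends the run of 10. On chromosome 3 the first was 145797738 to 145798798, with folds of 12.2 and 10.8 in the WT pair and 12.1 and 12.6 in the CBE_2 pair, and the third, 38041928 to 38042980, had 15.04 and 15.1 in the WT pair and 9.32 and 9.13 in the CBE_2 pair. WT folds of the other 3 lay between 8.79 and 13.3. No CBE_1 list had a peak at any of the 10.

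Among regions found in 1 line alone, the best-ranked of chromosome 3 were WT-only, at 98402756 to 98405371, with folds of 13.96 and 15.1, and CBE_2-only, at 133276692 to 133278021, with folds of 13.7 and 14.1. The CBE_2-only region lies inside the longest CBE_1 run of that chromosome. A further WT-only region lay close to the first, at 98220838 to 98222273, with folds of 14.3 and 13.5. On chromosome 14 the leading WT-only region was 24454939 to 24455867, with folds of 13.5 and 13.95, and the leading CBE_2-only region 64224621 to 64227357, with 12.9 and 11.4. CBE_1-only regions were weaker. The leading one of chromosome 14, at 55098146 to 55099145, reached 7.09 and 7.19, and the first of chromosome 3, at 51309409 to 51309930, had 5.13 and 5.21.

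Ranks of the regions present in all 6 libraries shifted in the same directions by most measures. Within each library the folds of the 47767 shared regions of the genome were turned into percentiles, where 100 is the strongest. Over the 4099 shared regions of chromosomes 3 and 14, mean percentiles were 49.9 and 49.8 in the WT pair, 48.1 and 49.0 in the CBE_1 pair, and 51.5 and 51.6 in the CBE_2 pair. On the other chromosomes all 6 lay between 49.8 and 50.2. Median percentiles of chromosome 3 did not set CBE_1 below WT, at 48.54 and 49.34 in the CBE_1 pair and 48.48 and 49.27 in the WT pair. Both CBE_1 libraries ranked below both WT libraries in 851 regions of chromosome 3 (36.3%) and 679 of chromosome 14 (38.7%), against 33.6% over the genome, and above them in 752 (32.1%) and 538 (30.7%), against 36.9%. Both CBE_2 libraries ranked above WT in 898 (38.3%) and 671 (38.2%), against 33.2%, and below in 610 (26.0%) and 498 (28.4%), against 33.2%. The median shift from WT to CBE_1 was -0.517 points on chromosome 3, -0.840 on chromosome 14 and 0.510 elsewhere, and that to CBE_2 was 0.914, 0.953 and -0.0251. For both chromosomes together the CBE_1 shift of -0.667 was -0.419 without CBE_1 replicate 1, -1.02 without CBE_1 replicate 2 and -1.22 with the better 50% of each list.

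The mutated lines were also compared with each other. Both CBE_1 libraries ranked below both CBE_2 libraries in 968 shared regions of chromosome 3 (41.3%) and 755 of chromosome 14 (43.0%), against 31.5% over the genome. They ranked above them in 552 (23.5%) and 391 (22.3%), against 34.1%. By density, the shift from WT to CBE_1 was -2.58 points over the 162 shared regions of peak-poor bins, -2.18 over 1205 in middle bins and -0.0989 over 2732 in dense bins. The other chromosomes gave -2.73, -1.73 and 1.38, nearest to these values in the sparse bins and farthest from them in the dense ones. Within the sparse bins the chromosomes differed, with -5.19 over 79 regions of chromosome 3 and -2.20 over 83 of chromosome 14. By stretch, the CBE_1 shift was -2.51 from 110 Mb onward and 1.49 from 75 to 110 Mb on chromosome 3, and -2.96 from 80 to 120 Mb on chromosome 14.

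Single shared regions moved much further. On chromosome 3 the largest fall was at 152418420 to 152423020, from percentiles 99.3 and 99.2 in the WT pair to 15.3 and 5.09 in the CBE_1 pair, with 87.9 and 85.8 in the CBE_2 pair. Its folds were 26.0 and 26.1 in the WT pair, 3.62 and 3.02 in the CBE_1 pair, and 18.6 and 16.8 in the CBE_2 pair. The third largest fall, at 152423432 to 152425801, lies beside it, with folds of 18.2 and 18.2 in the WT pair and 3.32 and 2.92 in the CBE_1 pair. Both are in the bin of 150 to 155 Mb. The largest fall of chromosome 14, at 123250576 to 123253187, went from folds of 19.7 and 19.8 in the WT pair to 4.37 and 4.07 in the CBE_1 pair and 7.23 and 7.41 in the CBE_2 pair.

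In 5 of the 6 largest rises CBE_2 ranked above WT by over 50 percentile points as well. The largest on chromosome 3, at 128916466 to 128920620, went from folds of 3.68 and 3.85 in the WT pair to 20.2 and 18.2 in the CBE_1 pair and 18.0 and 15.1 in the CBE_2 pair. The next 2, at 102538210 to 102540118 and 57650023 to 57652462, rose by 69.5 and 68.6 percentile points in CBE_1 and by 74.5 and 76.7 in the CBE_2 pair. The largest rise of chromosome 14, at 119323555 to 119325274, was one of CBE_1 alone, with folds of 2.60 and 2.97 in the WT pair, 11.0 and 10.1 in the CBE_1 pair, and 3.31 and 3.65 in the CBE_2 pair. All 6 rank far higher in CBE_1 than in WT on chromosomes where the CBE_1 lists are poor.

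Widths gave different pictures for all peaks and for shared regions. All peaks of chromosome 3 had a median width of 423 and 424 bp in the WT pair, 462 and 454 bp in the CBE_1 pair, and 431 and 430 bp in the CBE_2 pair. Those of chromosome 14 were 425 and 426 bp in the WT pair, 459 and 452.5 bp in the CBE_1 pair, and 430 and 426 bp in the CBE_2 pair. CBE_1 peaks thus had the largest medians, while on the other chromosomes the medians of all 6 lay between 447 and 468 bp. Within the shared regions the order was reversed, with median covered widths of 814.5 and 788 bp in the WT pair, 609 and 696 bp in the CBE_1 pair, and 789.5 and 808.5 bp in the CBE_2 pair on chromosome 3. Both CBE_1 libraries were narrower than both WT libraries in 1280 shared regions of chromosome 3 (54.6%) and 1066 of chromosome 14 (60.7%), against 52.6% over the genome, and wider in 220 (9.39%) and 129 (7.35%), against 11.0%. The median difference was -114 bp on chromosome 3, -129.5 bp on chromosome 14 and -103.5 bp elsewhere.

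Width and rank also varied with the density of the bin. In peak-poor bins of chromosomes 3 and 14 the median peak was 342 and 340 bp wide in WT, 398.5 and 392 bp in the CBE_1 pair, and 327 and 321 bp in the CBE_2 pair. In peak-dense bins the medians were 454.5 and 452 bp, 474 and 472 bp, and 470 and 459 bp. Median list percentiles by −log10 p in the peak-poor bins were lowest in CBE_2, at 33.6 and 38.4 on chromosome 3 and 23.3 and 24.6 on chromosome 14. In WT they were 41.5 and 42.9 on chromosome 3 and 36.7 and 37.5 on chromosome 14, and in CBE_1 47.1 and 46.3 on chromosome 3 and 47.1 and 45.5 on chromosome 14. In peak-dense bins of both chromosomes together the percentiles lay between 48.8 and 51.8 in all 6 libraries.

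Bins of 1 Mb set from general knowledge of mm9 were looked at for genes of lymphocyte biology. Their borders are approximate and other genes lie in them. The bin at 52 to 53 Mb of chromosome 3 is where Foxo1 is placed, a transcription factor that B cell precursors need for their development. It held 75 and 79 peaks in the WT pair, 71 and 76 in the CBE_1 pair, and 85 and 90 in the CBE_2 pair, a CBE_1 ratio of 1.37 and a CBE_2 ratio of 1.29. This was a rise against the chromosome as a whole, and its 51 shared regions ranked 8.31 points higher in CBE_1 than in WT. The bin that starts at 130 Mb, placed at Lef1, a transcription factor of early lymphocytes, held 129 and 102 peaks in the WT pair, 58 and 65 in the CBE_1 pair, and 107 and 115 in the CBE_2 pair. Here the CBE_1 ratio was 0.764. In the bin placed at Nfkb1, an NF-kappaB subunit, the ratio was 0.798, with 103 and 97 peaks in the WT pair and 49 and 63 in the CBE_1 pair.

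The bins at 36 to 38 Mb, placed at Il2, a T cell cytokine, had 113 and 109 peaks in the WT pair, 63 and 74 in the CBE_1 pair, and 96 and 102 in the CBE_2 pair, a CBE_1 ratio of 0.881. On chromosome 14 the CBE_1 ratio was 0.916 at 53 to 55 Mb, placed at the T cell receptor locus Tcra/Tcrd, and 0.959 at 63 to 65 Mb, placed at Blk, a kinase of the B cell receptor pathway. At 73 to 74 Mb, placed at the cell cycle inhibitor Rb1, it was 0.926. In these 3 windows the CBE_2 ratios were 0.966, 1.11 and 1.17. The strongest peak of every window had a fold of at least 19.7 in all 6 lists. Such a peak need not lie at the named gene, and the best folds of other bins were not compared. Regions missing from CBE_1 alone, 5.05% of regions over the genome, numbered 1 of 105 at Foxo1, 15 of 166 at Lef1, 7 of 124 at Nfkb1 and 17 of 138 at Il2. On chromosome 14 they numbered 4 of 92 at Tcra/Tcrd, 12 of 125 at Blk and 5 of 96 at Rb1.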

How the data were processed

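The 6 ATAC-seq libraries were grouped by their titles into WT, CBE_1 and CBE_2 and numbered in accession order. The authors deposited 1 peak list per library. Per the submitters' processing notes, Trimmomatic, Bowtie2, SAMtools, Picard and mouse build mm9 were used, in an order not stated, and the peak caller is not given in the sources used here. The deposited score (the whole part of 10 times the −log10 q-value in 100% of peaks), the fold over background (a ratio) and the −log10 p-values are the authors' own values per peak, and were used only within a list. Folds take 249 to 276 distinct values per list, so percentiles are tied and medians move in steps.

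Peaks were merged with Python 3.11.15 and pandas 2.3.3, placed in bins by their midpoint, and counted as shares of the list. Intervals came from scipy 1.17.1. Merging and patterns were tested on 20000 simulated regions. Named regions are, per chromosome, the 5 missing from CBE_1 alone and the 3 of each line-only pattern that rank best in their lowest library. The 2 longest runs and the 3 largest falls and rises were added. So were the 3 lowest and 3 highest full 5 Mb bins of at least 50 peaks. Not all of them are printed, and 1 further run was chosen after its values were seen. The chromosomes and lists were chosen with earlier results of these data known. No regions carry gene names or sequences, since no genome of mm9 was used here.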

Additional observations from a re-analysis of the deposited data

Results flagged for a closer look

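In 13 of the values above the CBE_1 libraries both moved one way from WT and the CBE_2 libraries both the opposite way. Other values of the same kinds, such as the median widths and the median percentiles of shared regions on chromosome 3, were looked at and did not show this order. The difference between the lines was not tested, and since the chromosomes were chosen for this order in their share of peaks, the order there is no finding. Covered bases and the shares by density and by stretch are closely tied to that share, so their order adds no separate finding. The stretches were also marked off after the bin values were seen. For the share of peaks, CBE_1 minus WT was -0.439 points on chromosome 3 (CBE_2 minus WT 0.433) and -0.5 on chromosome 14 (0.33). For covered bases it was -0.254 (0.394) and -0.412 (0.211). By density, the middle bins of chromosome 3 gave -0.347 (0.178), and on chromosome 14 the peak-poor bins gave -0.212 (0.0261) and the middle bins -0.357 (0.0203). By stretch, the first 75 Mb of chromosome 3 gave -0.147 (0.0158), its part from 110 Mb -0.561 (0.191), and chromosome 14 from 80 to 120 Mb -0.36 (0.146). The difference between the median percentiles of shared regions on chromosome 14 was -2.69 points for CBE_1 and 1.42 for CBE_2. This is another statistic than the median of the differences region by region, which was -0.840 and 0.953, and tied folds make the medians move in steps. The median list percentile of all peaks went the other way, by 2.58 points in CBE_1 and -2.67 in CBE_2 on chromosome 3, and by 1.49 and -3.09 on chromosome 14.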

How the results depend on the processing

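The 11 results were recomputed under 16 alternatives, 1 of them, the count over bins of at least 50 peaks (26 bins in place of 35), chosen after seeing the data. No direction turned among the recomputed differences and ratios, while the percentages and the count of bins have no direction to turn. Of 104 recomputed values, 71 stayed within the spread of the replicates, the interval or the 1.5-fold limit used for counts. Some of these 71 could not change, such as the CBE_1 minus WT shares when a CBE_2 library was left out. With lists of the same length, CBE_1 minus WT was -0.244 points on chromosome 3 and -0.482 on chromosome 14, the latter within the spread. CBE_2 minus WT was 0.207 and 0.153. Regions missing from CBE_1 alone were then 4.12%, WT regions found again in CBE_1 68.3%, and the CBE_1 ratio 0.611 in peak-poor and 1.03 in peak-dense bins. With the better 50% of each list the CBE_1 differences were -0.243 and -0.393 and those of CBE_2 0.0738 and 0.0623, with 8.18% missing, 58% found again, a percentile shift of -1.22 and a peak-poor ratio of 0.616. Presence by 50% of a region gave 6.8% missing and 43.1% found again. Shares over the genome were not recomputed under the alternatives. Peak-poor and peak-dense ratios were 0.453 and 1.04 with classes of 25% of bins, and 0.462 and 1.01 with shifted bins. With 1 Mb bins, 165 bins had CBE_1 below WT, as there are more of them. Leaving out 1 library gave 7.13% to 10.7% missing, 43.3% to 64.9% found again, and a shift of -1.02 to -0.419; with fewer libraries a pattern asks for less. No paired analysis was possible because the labels give the libraries no replicate numbers. Read depth is unknown, and its part in the differences among weak peaks was not tested.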
